A study of Mus musculus with 2 samples.

Results

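The 9 genes described here store, carry, oxidise or break down vitamin A and its products: Lrat, Rbp4, Stra6, Adh1, Adh7, Aldh1a1, Aldh1a2, Aldh1a3 and Cyp26b1. They were picked by symbol from the 32285 genes counted, and all 9 were found, each under 1 identifier. The cells were mesenchymal cells from the lungs of mice of 8 to 10 weeks of age that carried Lepr-CreERT2;Rosa26-tdtomato and received either saline or bleomycin, an agent used to injure the lung and model fibrosis. Each treatment had 1 droplet single-cell library. In both groups a tamoxifen-dependent Cre made from the leptin receptor gene marks cells with the red protein tdTomato, and the mark stays in a cell after the receptor gene is switched off. Marked cells without the leukocyte, epithelial and endothelial surface proteins CD45, EpCAM and CD31 were sorted, so the data cover that gate and not the whole lung. The sources used here do not give how many mice a library holds, when they were collected, how much bleomycin they received or the tamoxifen schedule, and no tdTomato or Cre feature is among the counted genes.

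Vitamin A travels in blood as retinol bound to the carrier protein RBP4, enters some cells through the membrane receptor STRA6, and is stored as retinyl esters made by the acyltransferase LRAT. Alcohol dehydrogenases such as ADH1 and ADH7 oxidise retinol to retinal, the retinaldehyde dehydrogenases ALDH1A1, ALDH1A2 and ALDH1A3 turn retinal into retinoic acid, the ligand of the nuclear retinoic acid receptors, and CYP26B1 breaks retinoic acid down. In the lung, lipid-laden fibroblasts of the alveolar wall are known for retinyl ester stores, and retinoic acid is known for its part in alveolar growth.

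In mm10 with the GENCODE annotation all 9 are protein-coding genes. Lrat lies on the minus strand of chromosome 3 (82892579 to 82903973). Adh7 (138217760 to 138233382) and Adh1 (138260991 to 138290698) lie on its plus strand, 27.6 kb apart. Rbp4 (38116629 to 38125281, minus strand) and Aldh1a1 (20492715 to 20643465, plus strand) are on chromosome 19, and Aldh1a2 (71215789 to 71296243) and Stra6 (58063788 to 58153996), both on the plus strand, on chromosome 9. Aldh1a3 is on chromosome 7 (66390890 to 66427517, minus strand) and Cyp26b1 on chromosome 6 (84571414 to 84593908, minus strand).

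The promoters of Lrat, Rbp4, Adh1 and Adh7 are shown because these 4 genes were the members called lower in adventitial cells of the bleomycin library when both libraries were clustered together. The 250 bases before each RefSeq start (build GRCm38.p6) run 5′ to 3′ along the gene's strand, at chr3:82903975-82904224 (Lrat), chr19:38125322-38125571 and chr19:38124812-38125061 (the upstream and downstream starts of Rbp4), chr3:138277335-138277584 (Adh1) and chr3:138217523-138217772 (Adh7). Capitals mark retinoic acid receptor half-sites, searched on both strands as AGGTCA and AGTTCA, and further as GGGTCA and also GGTTCA, and the TATA motif TATAAA on both strands.
Lrat: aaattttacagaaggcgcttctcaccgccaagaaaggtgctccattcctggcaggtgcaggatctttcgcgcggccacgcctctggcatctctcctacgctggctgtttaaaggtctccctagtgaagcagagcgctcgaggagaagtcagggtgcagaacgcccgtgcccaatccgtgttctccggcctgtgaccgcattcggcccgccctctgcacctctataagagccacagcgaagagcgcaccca
Rbp4, upstream start: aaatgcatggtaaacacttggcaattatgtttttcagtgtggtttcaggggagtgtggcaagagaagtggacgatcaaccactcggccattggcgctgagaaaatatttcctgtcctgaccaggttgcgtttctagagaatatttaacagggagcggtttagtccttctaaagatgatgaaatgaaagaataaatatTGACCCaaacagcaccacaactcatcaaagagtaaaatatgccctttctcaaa
Rbp4, downstream start: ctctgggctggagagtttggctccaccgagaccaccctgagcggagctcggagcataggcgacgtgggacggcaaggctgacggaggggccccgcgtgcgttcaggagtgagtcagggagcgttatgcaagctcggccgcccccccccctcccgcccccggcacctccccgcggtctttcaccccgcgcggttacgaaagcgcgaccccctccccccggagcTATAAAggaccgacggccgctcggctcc
Adh1: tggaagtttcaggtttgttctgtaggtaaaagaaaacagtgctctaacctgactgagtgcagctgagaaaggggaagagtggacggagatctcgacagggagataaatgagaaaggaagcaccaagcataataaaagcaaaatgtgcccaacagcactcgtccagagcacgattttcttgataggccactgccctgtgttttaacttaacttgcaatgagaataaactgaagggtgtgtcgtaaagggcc
Adh7: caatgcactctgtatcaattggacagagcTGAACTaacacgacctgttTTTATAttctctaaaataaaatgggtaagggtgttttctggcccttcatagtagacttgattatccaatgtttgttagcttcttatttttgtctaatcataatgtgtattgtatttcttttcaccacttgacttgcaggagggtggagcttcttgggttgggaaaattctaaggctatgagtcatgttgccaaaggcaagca
RefSeq promoters, here windows from 250 bases before to 50 after each start, were found for 8 of the 9 genes with 13 starts in all, and for Aldh1a3 there was none. Within that window a half-site occurred at the upstream start of Rbp4 (TGACCC, at -53), at Adh7 (TGAACT, at -221), at the downstream start of Aldh1a1 (TGACCC, at -49) and at 1 start of Stra6 (AGTTCA, at position 16 after the start). The motif is common: 43.7% of all 32851 RefSeq promoter windows hold at least 1. Direct repeats of the half-site spaced by 1, 2 or 5 bases, the arrangement retinoic acid receptors are known to bind, occurred in 0.222%, 0.268% and 0.0974% of all windows and in none of the 13. TATAAA stood at -28 of the downstream start of Rbp4, with matches also at Adh7 (-202, on the other strand) and Cyp26b1 (-139), against 13.6% of all windows. Base composition differed widely: Lrat had 21 CpG dinucleotides in its window, the downstream start of Rbp4 had 40 and Aldh1a2 had 50, while Adh7 had 3 and Adh1 6, with a median of 7 over all windows.

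The saline library held 8396 barcodes and 60937359 UMIs (unique transcript molecules), and the bleomycin library 10138 barcodes and 134732429 UMIs, with medians of 6762 and 11662 UMIs per barcode. The 2 libraries shared 25 barcode sequences. After filtering, 8284 and 10001 cells were clustered with all retinoid genes left out of the clustering, so that the members did not shape the classes, and clusters were named from marker lists. Alveolar fibroblast-like cells, those of the alveolar wall, made up 5778 saline cells and 294 bleomycin cells. Adventitial fibroblast-like cells, which carry Pi16 and are known from the cuffs of vessels and airways, numbered 1449 and 1120. Inflammatory fibroblast-like cells (65 and 4209) and fibrotic fibroblast-like cells (15 and 2586) came nearly all from bleomycin in this joint clustering, and whether they are types or features of that one library cannot be told apart. The class names depended on the clustering: with each library clustered on its own, 2777 saline cells (33.5%) and 2536 bleomycin cells took the inflammatory name, and the alveolar class held 3123 saline and 996 bleomycin cells. All 14 alveolar markers were raised in alveolar cluster 2 and 7 of 14 in cluster 3, and 12 of 14 adventitial markers were raised in the adventitial cluster. Levels are given as CPM, a gene's UMIs divided by all UMIs summed over a class and scaled to counts per 1000000. Brackets hold 95% intervals, which cover nothing beyond counting error. With 1 library per treatment there is no spread between animals and no test. A gene met the size rule where the higher of its summed levels reached 10 CPM, the levels were 2-fold apart or more, and the interval of their ratio did not include 1.

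Lrat was found in both main fibroblast classes of the saline library, at levels less than 2-fold apart. Lrat, which esterifies retinol, was at 211 CPM [207–215] in alveolar cells and 169 CPM [161–177] in adventitial cells of the saline library. Below them came inflammatory cells at 65.1 CPM [48.4–85.6], smooth muscle cells at 17.7 CPM [13.3–23.2], epithelial cells at 4.37 CPM [0.901–12.8] and peribronchial fibroblasts at 1.84 CPM [0.380–5.39], and the intervals of the last pair overlapped. In the bleomycin library Lrat was at 171 CPM [153–190] in alveolar cells, 59.6 CPM [57.6–61.7] in inflammatory cells and 48.3 CPM [44.3–52.7] in adventitial cells. Fibrotic cells held 4.64 CPM [4.05–5.30], no more than the 4.76 CPM [2.06–9.38] of the epithelial cells, a class the sort was set against. The class named epithelial was mixed. In saline its airway epithelial markers summed to 70937 CPM and its alveolar epithelial markers to 41906 CPM. Of the endothelial markers 11 of 11, of the macrophage markers 10 of 11 and of the T or NK cell markers 8 of 8 also reached 10 CPM there. Alveolar cells, 69.7% of saline cells, carried 82.3% of all Lrat UMIs in saline. Inflammatory cells, 42.1% of bleomycin cells, carried 72.1% in bleomycin, so these shares also reflect class size.

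The carrier gene Rbp4 was highest in adventitial cells. Its level there was 1206 CPM [1185–1228] in the saline library and 333 CPM [322–344] in the other. In saline the next classes were inflammatory cells at 213 CPM [182–248] and alveolar cells at 190 CPM [186–194], whose intervals overlapped, then peribronchial fibroblasts at 51.7 CPM [41.2–64.0]. In bleomycin Rbp4 was at 160 CPM [143–179] in alveolar, 89.4 CPM [87.0–92.0] in inflammatory and 80.3 CPM [71.7–89.6] in proliferating cells, the last pair with overlapping intervals, and at 10.5 CPM [9.58–11.4] in fibrotic cells. Epithelial cells gave 24.8 CPM [14.4–39.6] in saline and 45.2 CPM [35.6–56.6] in bleomycin.

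Transcripts of Stra6, the receptor for the retinol carrier, were rare and, in the bleomycin library, lay mostly in fibrotic cells. That class held 288 of the library's 312 Stra6 UMIs (92.3%), at 6.05 CPM [5.37–6.79], spread over 203 of its 2586 cells. Adventitial cells were at 2.11 CPM [1.32–3.20] in saline, from 22 UMIs, and 1.11 CPM [0.574–1.94] in bleomycin. Among 5778 alveolar cells of saline 1 Stra6 UMI was found, and among the 294 of bleomycin 0, with an upper bound of 1.85 CPM.

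Of the retinol-oxidising enzymes, Adh1 was found in both main fibroblast classes, and Adh7 came mostly from adventitial cells. Adh1 was at 195 CPM [187–204] in adventitial and 111 CPM [108–114] in alveolar cells of saline, against 86.7 CPM [81.2–92.4] and 126 CPM [111–143] in bleomycin. Inflammatory cells of bleomycin held 89.5 CPM [87.0–92.0], a level whose interval overlapped that of the adventitial cells, and fibrotic cells 24.1 CPM [22.7–25.5]. Its neighbour Adh7 was at 163 CPM [155–171] in adventitial cells of saline and 55.6 CPM [51.3–60.3] in bleomycin. In alveolar cells Adh7 was at 1.37 CPM [1.04–1.77] and 1.0 CPM [0.121–3.62], no more than the epithelial cells' 1.46 CPM [0.0369–8.11] and 1.19 CPM [0.144–4.30]. Adventitial cells supplied 94.8% of Adh7 UMIs in saline and 66.3% in bleomycin. Adh7 and Rbp4 were also among the 10 leading genes of the adventitial cluster, although neither had been used to make it.

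The 3 retinaldehyde dehydrogenase genes marked different cells. Aldh1a1 was highest in alveolar cells, at 677 CPM [669–685] with saline and 650 CPM [615–686] with bleomycin, and alveolar cells held 92.0% of its saline UMIs. In saline it followed in inflammatory cells at 295 CPM [258–335], then in adventitial cells at 158 CPM [151–166] and epithelial cells at 137 CPM [111–168], whose intervals overlapped. In bleomycin mesothelial cells came next at 332 CPM [305–361], then inflammatory cells at 297 CPM [292–302] and proliferating cells at 185 CPM [172–199]. Adventitial cells at 113 CPM [106–119], fibrotic cells at 104 CPM [101–107] and epithelial cells at 101 CPM [86.5–118] followed, and the interval of the adventitial cells overlapped those of the other two. Mesothelial cells, the cells that line the lung's surface, held the most Aldh1a2: 387 CPM [358–418] in 116 bleomycin cells and 721 CPM in only 41 saline cells. Adventitial cells came next in bleomycin at 72.7 CPM [67.7–77.9]. In saline, smooth muscle cells at 27.4 CPM [21.8–34.0] lay above adventitial cells at 18.0 CPM [15.5–20.7]. Alveolar cells gave 12 Aldh1a2 UMIs in saline and 2 in bleomycin, or 0.283 CPM [0.146–0.494] and 1.0 CPM [0.121–3.62].

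Aldh1a3 was low in saline, with 152 UMIs in the whole library, 75.7% of them adventitial. Adventitial cells had 11.0 CPM [9.12–13.3] there and 45.3 CPM [41.3–49.5] in bleomycin, and fibrotic cells at 15.2 CPM [14.1–16.4]. Few cells carried these UMIs. In bleomycin 135 of 1120 adventitial cells had any, and the top 10 cells held 53.6% of the sum. In fibrotic cells 199 of 2586 had any, and the top 10 held 40.6%.

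Among classes with at least 50 cells, Cyp26b1, which breaks down retinoic acid, was highest in fibrotic cells of the bleomycin library at 20.3 CPM [19.0–21.6]. The cluster that stayed unnamed, with 177 cells, was at 14 CPM [8.88–21.0], an interval that overlapped both that of the fibrotic cells and the 12.0 CPM [9.24–15.4] of peribronchial fibroblasts. Fibrotic cells supplied 65.9% of the library's Cyp26b1 UMIs, and 371 of those 2586 cells had at least 1. In saline the levels were 14 CPM [7.01–25.1] in 65 inflammatory cells, from 11 UMIs, 3.55 CPM [2.5–4.90] in adventitial and 1.93 CPM [1.54–2.40] in alveolar cells. The only 15 fibrotic cells of saline were at 42.8 CPM [20.5–78.8], from 10 UMIs.

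**Figure D1:**
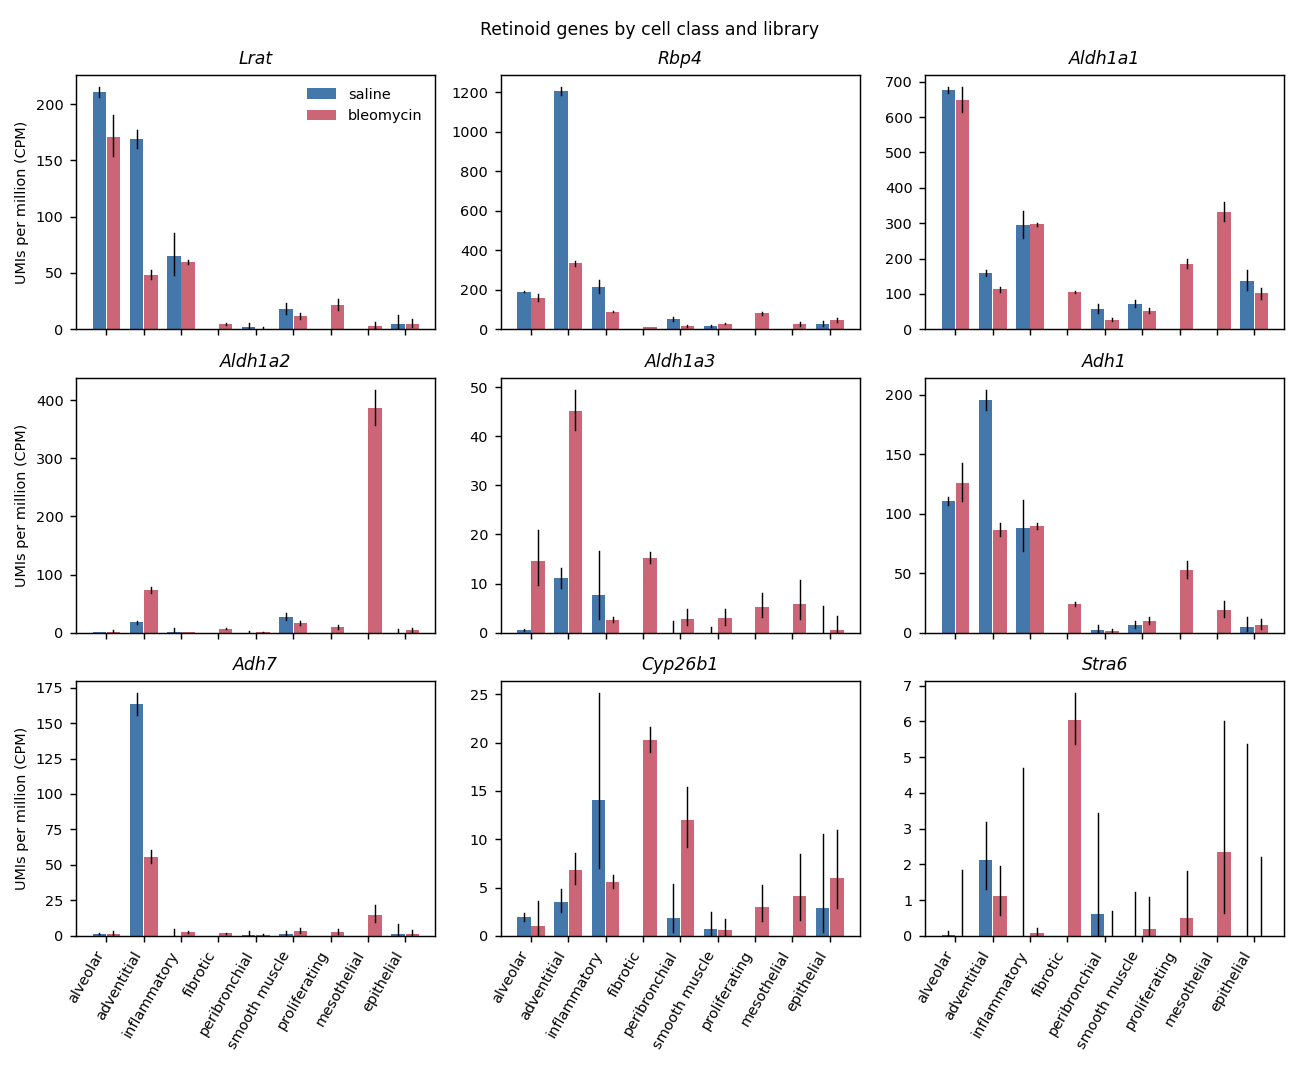
Level of each gene (CPM, linear axis from 0, a different scale per panel) in each cell class of the saline (blue) and bleomycin (red) library. Bars are CPM of the summed UMIs with 95% Poisson intervals, and classes with under 50 cells in a library are not drawn. Rbp4 and Adh7 stand highest in adventitial cells, Aldh1a1 in alveolar cells, Aldh1a2 in mesothelial cells, and Cyp26b1 and Stra6 in fibrotic cells of bleomycin.

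Alveolar and adventitial cells were then compared within each library. In saline 7 of the 9 members reached 10 CPM, and Stra6 and Cyp26b1 did not. Of the 7, 1 was higher in alveolar cells and 4 were lower by the size rule, while 4.29% of the 7927 genes measured were higher and 6.33% lower. In bleomycin 2 of 7 were higher and 4 lower, against 7.13% and 7.55% of 8078 genes. The 4 lower members were Rbp4, Adh7, Aldh1a2 and Aldh1a3 in each library, and Aldh1a1 was the higher one in each, joined in bleomycin by Lrat. The members' median log2 ratio was -2.66 in saline and -1.06 in bleomycin, beside medians of all genes measured near 0.

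For Aldh1a1 the level in alveolar cells was 4.27 times [4.07–4.49] the adventitial level in saline and 5.77 times [5.33–6.24] in bleomycin. Rbp4 was 6.34-fold lower in alveolar cells of saline and 2.08-fold lower in bleomycin, where the ratio was 0.481 [0.427–0.539]. With a stricter cell filter that bleomycin ratio was 0.527, short of the size rule. When each library was clustered on its own, the Rbp4 ratio was 0.0222 in saline and 0.232 in bleomycin. The Aldh1a1 ratio was then 9.60 in saline and 4.77 in bleomycin, so the size of these gaps depended on the clustering. Adh7 was 119-fold lower in alveolar cells of saline (ratio 0.00839 [0.00634–0.0109]), the widest gap between the classes among the 7. In bleomycin its ratio was 0.0180 [0.00217–0.0653], from 2 alveolar UMIs. Aldh1a2 had ratios of 0.0158 [0.00800–0.0282] and 0.0138 [0.00166–0.0499], and Aldh1a3 of 0.0384 [0.0220–0.0635] and 0.321 [0.212–0.466]. The bleomycin Aldh1a3 ratio rested on 29 alveolar UMIs, 26 of them in 1 cell, and was 0.0335 without that cell, near the saline value.

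Lrat and Adh1 did not separate the classes in saline by the size rule. The Lrat ratio of alveolar over adventitial cells was 1.25 [1.19–1.32] in saline and 3.54 [3.08–4.07] in bleomycin. The Adh1 ratio was 0.567 [0.538–0.598] and 1.46 [1.26–1.67]. In the joint clustering both ratios were larger in bleomycin, where both genes were lower in adventitial cells, and the difference between the libraries was not tested. When each library was clustered on its own, the Lrat ratio was 6.85 in saline and 2.51 in bleomycin, the reverse order. The Adh1 ratio kept its order, at 0.660 and 1.54. Adventitial Lrat was then not lower in bleomycin (bleomycin over saline 1.34). A cluster of 770 Adh7-rich saline cells then carried no name and lay outside the adventitial class. As for markers of other cell types, the alveolar epithelial list summed to 113 CPM in saline and 120 CPM in bleomycin alveolar cells, and to 33.2 and 25.2 CPM in adventitial cells, and its part in these ratios was not tested.

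**Figure D2:**
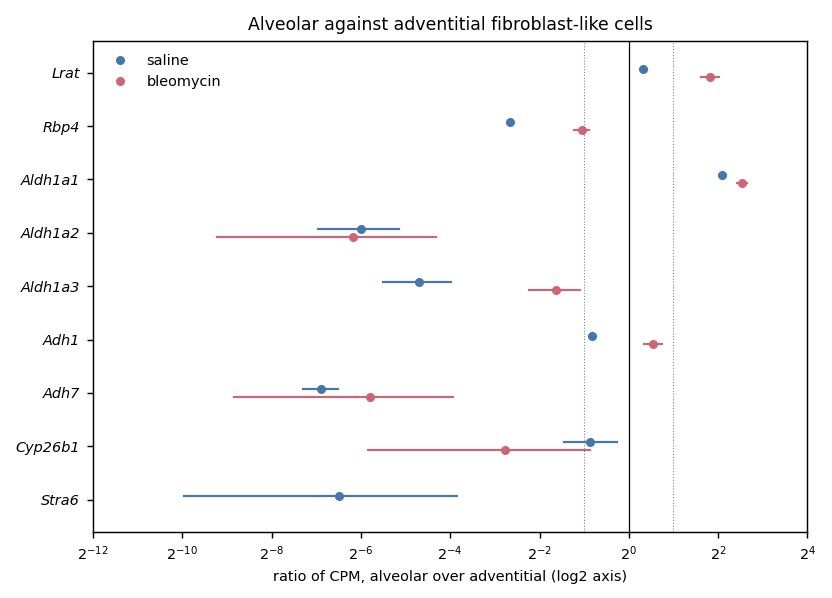
Ratio of CPM in alveolar over adventitial fibroblast-like cells (log2 axis) for each gene in the saline (blue) and bleomycin (red) library, with 95% intervals from counting error. The solid line marks equal levels and the dotted lines a 2-fold difference. Aldh1a1 lies to the right in both libraries, and Rbp4, Aldh1a2, Aldh1a3 and Adh7 lie to the left.

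Each of the classes was itself uneven for these genes. The alveolar class held cluster 2, led by Slc7a10 and Mettl7a1 (3402 saline and 120 bleomycin cells), and cluster 3, led by Tpm3-rs7, Cxcl9 and Ch25h (2376 and 174 cells). Rbp4 was at 24.1 CPM [22.1–26.3] in cluster 2 and 361 CPM [352–369] in cluster 3 of saline, a 14.9-fold difference, so nearly all alveolar Rbp4 lay in cluster 3. In bleomycin cluster 2 gave 1 Rbp4 UMI and cluster 3 was at 242 CPM [217–271]. The cluster 2 level in saline was close to the 24.8 CPM of the epithelial cells. Aldh1a1 went the other way, at 873 CPM [861–886] in cluster 2 and 476 CPM [466–485] in cluster 3 of saline (ratio 1.84 [1.79–1.88]) and 975 CPM and 480 CPM in bleomycin (2.03 [1.82–2.27]). Lrat was nearly even, with a ratio of 1.24 [1.19–1.29] in saline and 0.842 [0.662–1.06] in bleomycin. Between these clusters 0 of 4 members at 10 CPM were higher in cluster 2 of saline and 1 lower, against 2.35% and 4.21% of all genes. In bleomycin, where 1 of 5 was higher and 2 lower, the shares of all genes were 6.28% and 5.61%.

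At the finer clustering resolution of 1 the adventitial class split into cluster 0, whose leading genes included Aqp1, Lamc3, Wif1 and Smoc2, and cluster 14, led by Pi16, Ly6c1 and Ly6a. Cluster 0 had 926 saline and 384 bleomycin cells and cluster 14 had 531 and 770. Lrat was at 231 CPM [220–242] in cluster 0 and 17.1 CPM in cluster 14 of saline, 13.5 times [10.2–18.1] as high, and 11.8 times [9.26–15.2] as high in bleomycin. Adh7 showed the same order, at 214 and 33.0 CPM in saline and 130 and 14.7 CPM in bleomycin. Aldh1a2 and Aldh1a3 were in the opposite cluster: Aldh1a2 was at 1.21 CPM in cluster 0 and 58.7 CPM in cluster 14 of saline, and Aldh1a3 at 2.01 and 33.0 CPM. In bleomycin Aldh1a2 was at 0.269 and 104 CPM and Aldh1a3 at 4.04 and 63.6 CPM. Aldh1a1, whose product also makes retinoic acid, went with Lrat and Adh7, at 201 and 58.4 CPM in saline (3.45 times as high in cluster 0) and 195 and 75.9 CPM in bleomycin (2.57 times). The 3 retinaldehyde dehydrogenase genes were thus divided between the adventitial clusters. Rbp4 differed less, at 1302 and 965 CPM in saline and 566 and 200 CPM in bleomycin. Of 7 members at 10 CPM, 3 were higher in cluster 0 and 2 lower in saline, against 4.66% and 3.69% of all genes, and 4 higher and 2 lower in bleomycin, against 3.77% and 4.16%.

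**Figure D3:**
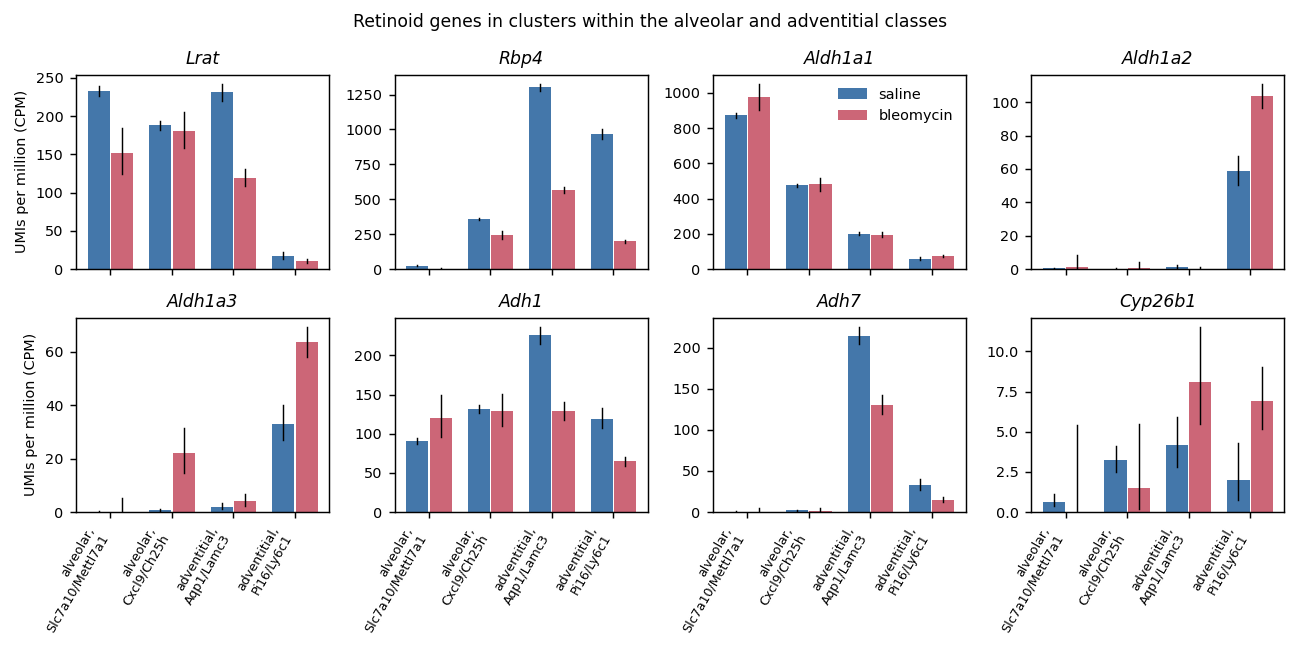
Level of 8 genes (CPM, linear axes from 0) in alveolar clusters 2 (Slc7a10/Mettl7a1) and 3 (Cxcl9/Ch25h) and in adventitial clusters 0 (Aqp1/Lamc3) and 14 (Pi16/Ly6c1) of the saline (blue) and bleomycin (red) library, with 95% Poisson intervals. Rbp4 is low in alveolar cluster 2, Lrat and Adh7 are lower in adventitial cluster 14 than in adventitial cluster 0, and Aldh1a2 and Aldh1a3 are high only there among these 4 clusters, apart from 29 Aldh1a3 UMIs of alveolar cluster 3 in bleomycin.

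Summed over all mesenchymal cells, Lrat, Rbp4, Adh1, Adh7 and Aldh1a1 were lower in the bleomycin library and Aldh1a3 and Cyp26b1 were higher. Of the 7 members at 10 CPM in either library, 2 were higher and 5 lower by the size rule, against 5.6% and 5.92% of the 8021 genes measured, with a median log2 ratio of -1.46 beside -0.04 over all genes. Lrat went from 184 CPM [181–187] to 34.4 CPM [33.5–35.5] (ratio 0.187 [0.181–0.194]). Rbp4 went from 357 to 75.5 CPM (ratio 0.212), Adh7 from 30.0 to 6.70 CPM (0.223), Aldh1a1 from 525 to 191 CPM (0.364) and Adh1 from 116 to 57.4 CPM (0.494 [0.478–0.510], at the edge of the rule). Aldh1a3 went from 2.57 to 11.0 CPM (4.27 [3.61–5.09]) and Cyp26b1 from 2.47 to 11.0 CPM (4.47 [3.76–5.33]). Stra6 had a ratio of 4.62 [3.17–6.96] and Aldh1a2 of 1.92 [1.69–2.19], both under 10 CPM.

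Holding the mixture of classes alike brought most of these ratios nearer to 1, but those of Aldh1a3 and Aldh1a2 moved further from it. With the bleomycin clusters weighted to the saline mixture, Lrat had a ratio of 0.707, Adh1 of 0.921, Aldh1a1 of 1.06 and Cyp26b1 of 0.954, so that the last pair changed sides. Rbp4 (0.419) and Adh7 (0.354) were still lower by 2-fold or more, Aldh1a3 (6.82) and also Aldh1a2 (3.03) were higher, and Stra6 had a ratio of 0.509. No interval was computed for these weighted ratios, so their calls rest on the 2-fold and 10 CPM limits alone. The mixture weights rest mainly on the 294 alveolar bleomycin cells. Among those, cluster 3 had 22.0 CPM of Aldh1a3 from 29 UMIs, 26 of them in 1 cell. The mixture ratio was not computed without that cell. Clusters with under 50 cells in either library, the fibrotic, proliferating and unnamed ones, were left out of the mixture. Fibrotic cells held 65.9% of Cyp26b1 and 92.3% of Stra6 UMIs in bleomycin, so the mixture ratios of both genes leave out their main source there. Clusters were made from expression, so a change of mixture and a change of state cannot be told apart here.

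Within alveolar cells Lrat, Rbp4, Aldh1a1 and Adh1 were less than 2-fold apart between the 2 libraries. The bleomycin over saline ratio was 0.811 [0.726–0.904] for Lrat, 0.842 [0.750–0.941] for Rbp4, 0.960 [0.907–1.01] for Aldh1a1 and 1.14 [0.998–1.29] for Adh1. Of 5 members at 10 CPM 1 was higher, Aldh1a3, and 0 lower, against 1.83% and 0.885% of 7793 genes. The Aldh1a3 ratio of 34.2 [18.4–65.4] rested on 29 bleomycin UMIs, 26 of them in 1 cell, and without that cell it was 3.57 and short of the rule. The Rbp4 ratio depended on which cells were called alveolar: it was 0.384 at resolution 1, with 876 alveolar bleomycin cells, and 3.14 when each library was clustered on its own, where Lrat was at 0.491 and by the rule lower. Cluster 3 held 41.1% of alveolar cells in saline and 59.2% in bleomycin, and within it the Rbp4 ratio was 0.673 [0.599–0.752]. In cluster 2 it was 0.0607 [0.00153–0.339], from 1 bleomycin UMI against 518 in saline. By the rule 1 of 4 members was lower and 0 higher in cluster 2, against 1.65% and 2.41% of all genes, and 1 of 5 higher (Aldh1a3) and 0 lower in cluster 3, against 1.99% and 1.42%.

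In adventitial cells, of 7 members at 10 CPM 2 were higher in bleomycin, Aldh1a2 and Aldh1a3, and 4 lower, Rbp4, Lrat, Adh7 and Adh1, against 3.26% and 3.62% of 7882 genes. Aldh1a2 had a ratio of 4.05 [3.45–4.77] and Aldh1a3 of 4.10 [3.34–5.07]. The lower members had ratios of 0.276 [0.266–0.287] for Rbp4, 0.287 [0.259–0.316] for Lrat, 0.341 [0.310–0.375] for Adh7 and 0.443 [0.410–0.479] for Adh1, and Aldh1a1 had 0.711 [0.660–0.767]. These calls depended on the joint clustering. With each library clustered on its own 0 members were higher and 1, Rbp4 at 0.299, was lower, Lrat (1.34) and Adh7 (1.53) changed direction, and Aldh1a2 (1.45), Aldh1a3 (1.5) and Adh1 (0.687) fell short of the rule. At resolution 1 the Pi16/Ly6c1 cluster held 36.4% of adventitial cells in saline and 66.7% in bleomycin. It differed from the Aqp1/Lamc3 cluster in the same directions as the joint-clustering ratios. In saline, though, Rbp4 and Adh1 were only 1.35 and 1.89 times as high in the Aqp1/Lamc3 cluster, short of the rule. The part of these cluster shares in the ratios was not tested.

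Inside the adventitial clusters fewer members met the rule. In cluster 0, 1 of 5 members was lower and 0 higher, against 3.22% and 2.76% of all genes: Rbp4, with a ratio of 0.435 [0.415–0.456]. Aldh1a2 there had only 1 UMI in bleomycin and 9 in saline. Lrat had 0.516 [0.464–0.574], Adh1 0.572 and Adh7 0.608. In cluster 14, 2 of 7 were lower and 0 higher, against 3.79% and 3.97%, namely Rbp4 at 0.207 [0.195–0.220] and Adh7 at 0.447 [0.339–0.591]. Lrat had 0.591 [0.411–0.855], Aldh1a2 1.77 [1.5–2.09] and Aldh1a3 1.93 [1.55–2.42], and Cyp26b1, under 10 CPM, had 3.50 [1.51–9.95]. The summed markers of inflammatory fibroblasts came to 2715 CPM in saline adventitial cells and 5780 CPM in bleomycin adventitial cells, and those of fibrotic fibroblasts at 324 and 1174 CPM, and their part in these ratios was not tested. All treatment comparisons use the same 2 libraries and are no independent support for each other. Fewer expressing cells and less RNA per cell cannot be told apart from sums alone.

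**Figure D4:**
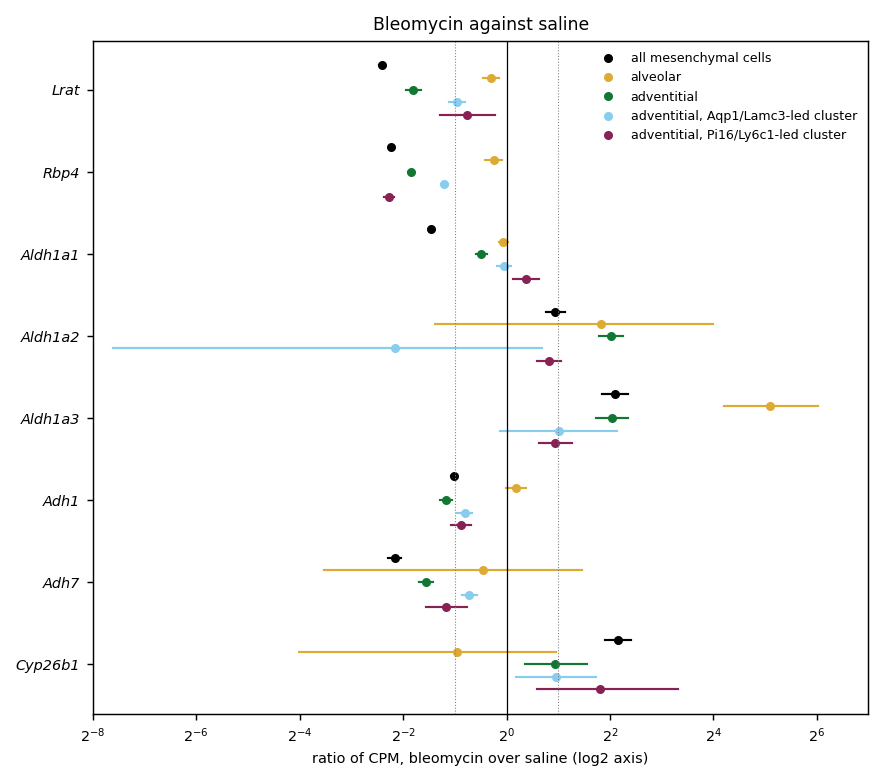
Ratio of CPM in bleomycin over saline (log2 axis) for 8 genes, over all mesenchymal cells, within the alveolar and adventitial classes, and within the adventitial clusters led by Aqp1/Lamc3 and Pi16/Ly6c1, with 95% intervals from counting error. Dotted lines mark a 2-fold difference. For Lrat, Rbp4 and Aldh1a1 the alveolar points lie nearer to equal levels than those of all mesenchymal cells, and Rbp4 lies beyond the 2-fold line in both adventitial clusters.

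In peribronchial fibroblasts Rbp4 had a bleomycin over saline ratio of 0.314 [0.229–0.430], Aldh1a1 of 0.474 [0.362–0.622] and Cyp26b1 of 6.52 [2.13–32.4], the last from 63 UMIs in bleomycin and 3 in saline. In inflammatory cells, with only 65 in saline, Rbp4 had a ratio of 0.420 [0.360–0.493] and Cyp26b1 of 0.398 [0.219–0.806], the opposite direction to peribronchial fibroblasts, from 306 UMIs in bleomycin and 11 in saline. In smooth muscle cells Rbp4 had a ratio of 1.60 [1.16–2.22] and Aldh1a1 of 0.725 [0.604–0.871].

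The main classes of the bleomycin library, inflammatory and fibrotic cells, stood apart in nearly every member. Of 6 members at 10 CPM, 2 were higher in fibrotic cells and 4 lower, against 5.01% and 6.1% of 7726 genes. The lower ones were Lrat (12.9-fold; ratio 0.0778 [0.0676–0.0892]), Rbp4 (8.54-fold), Adh1 (3.71-fold) and Aldh1a1 (2.85-fold). Aldh1a3 was 5.75 times [4.80–6.92] and Cyp26b1 3.63 times [3.19–4.14] as high in fibrotic cells. Stra6, under 10 CPM, had a ratio of 66.3 [28.1–206] from 288 and 5 UMIs. A retinaldehyde dehydrogenase gene thus stood on each side, Aldh1a1 higher in inflammatory and Aldh1a3 in fibrotic cells.

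To compare shares of cells, each cell was thinned to 2000 UMIs. An Rbp4 UMI was found in 67.8% [65.3–70.3] of adventitial cells of saline and 35.4% [32.5–38.4] of bleomycin, or 82.4% and 57.1% without thinning. In alveolar cells the shares were 13.8% [12.9–14.7] and 17.3% [13.1–22.2]. By cluster, 2.47% [1.97–3.05] of alveolar cluster 2 and 29.8% [28.0–31.7] of cluster 3 had one in saline, so the clusters differed in how many cells carried Rbp4. The mixed class named epithelial, taken as background, gave 0.909% [0.0230–4.96] (1 of 110 cells) and 3.57% [1.32–7.61]. Its median depths were 5309 and 5799 UMIs before thinning, beside 6914 and 9262 in adventitial cells. The cluster 2 interval lay within that of the saline background, which rests on 1 cell with a UMI and is too wide to tell the shares apart.

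A Lrat UMI was found in 31.0% [29.8–32.2] of alveolar and 19.9% [17.9–22.2] of adventitial cells in saline, and in 24.0% [19.2–29.4] and 7.18% [5.70–8.90] in bleomycin, with a background of 1.82% and 0.595%. Unthinned the saline shares were 60.3% and 39.3%. Within adventitial cells of saline 29.0% [26.1–32.0] of cluster 0 and 2.57% [1.33–4.45] of cluster 14 had one. Adh7 was found in 22.8% [20.7–25.2] of adventitial and 0.244% [0.134–0.409] of alveolar cells in saline, and in 10.5% [8.70–12.5] of adventitial cells in bleomycin. For Aldh1a1 the alveolar shares were 68.7% [67.5–69.9] and 64.3% [58.4–69.9]. The adventitial shares, 21.4% [19.3–23.7] and 15.6% [13.4–17.9], overlapped the epithelial ones of 17.3% [10.7–25.7] and 10.1% [6.01–15.7]. Epithelial cells are no floor for Aldh1a1: in saline they were at 137 CPM, above smooth muscle cells at 72.6 CPM and peribronchial fibroblasts at 57.2 CPM. An Aldh1a2 UMI was found in 3.92% [2.96–5.08] of adventitial cells in saline and 10.2% [8.44–12.2] in bleomycin, and in 61.7% [52.2–70.6] of mesothelial cells of bleomycin. In fibrotic cells 3.39% [2.73–4.17] had a Cyp26b1 UMI and 1.29% [0.888–1.80] a Stra6 UMI.

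Lrat and Rbp4 were not found together more often in alveolar cells of saline. Of cells with a Lrat UMI 10.1% [8.77–11.6] had an Rbp4 UMI, against 15.4% [14.3–16.6] of cells without one. In adventitial cells the same shares were 72.0% [66.3–77.2] and 66.8% [63.9–69.5], with overlapping intervals. These shares pool the clusters within each class. In alveolar clusters 2 and 3 of saline Rbp4 was at 24.1 and 361 CPM and Lrat at 233 and 188 CPM, and the part of that mixture in the shares was not tested.

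**Figure D5:**
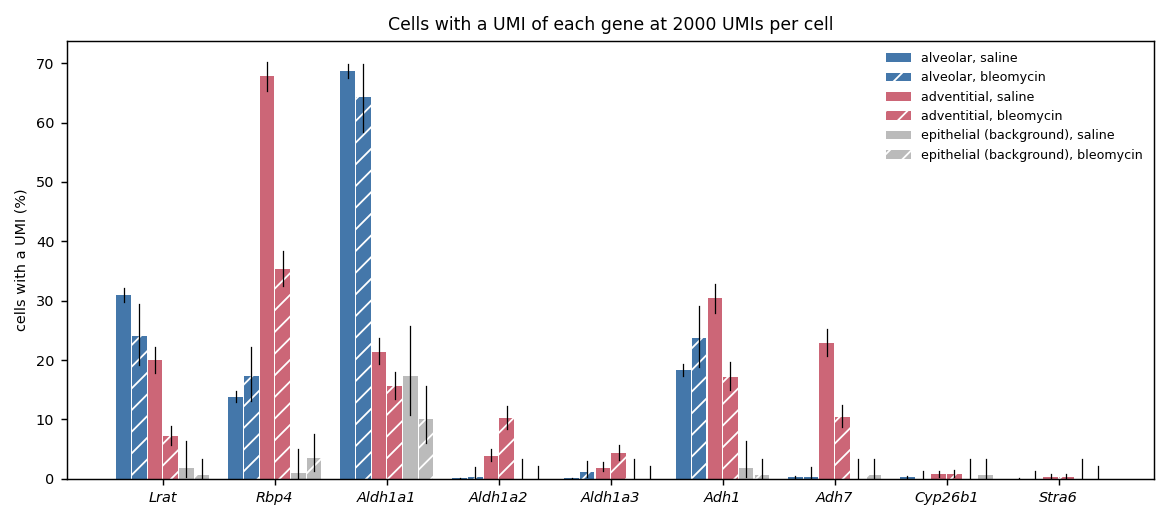
Percent of cells with at least 1 UMI of each gene after thinning every cell to 2000 UMIs, in alveolar, adventitial and epithelial (background) cells of the saline (plain) and bleomycin (hatched) library, with 95% Clopper-Pearson intervals. Rbp4 and Adh7 are found most often in adventitial cells and Aldh1a1 and Lrat in alveolar cells, while Aldh1a1 shares of adventitial and epithelial cells overlap.

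Other genes of the pathway were read from 7 lists, beside the 5.6% of all genes that were higher and 5.92% that were lower over all mesenchymal cells. Of 4 measured uptake and binding genes, lipoprotein lipase, Lpl, was higher in the bleomycin mesenchyme (4.10-fold [3.97–4.24], from 70.6 to 290 CPM) and 0 were lower. Among 5 retinyl ester and carotenoid enzymes hormone-sensitive lipase, Lipe, was lower (ratio 0.268), and among 6 retinol and retinal redox enzymes the aldehyde oxidase Aox1 was lower (0.456). Of 6 lipid storage genes Lpl, which is on both lists, was higher and G0s2, an inhibitor of fat breakdown, lower (0.214, from 744 to 159 CPM). Neither the 14 receptors and coregulators nor the 15 retinoic acid response genes measured held any that met the rule there, with medians of -0.08 and -0.37 on the log2 scale, and 0 of 5 breakdown enzymes reached 10 CPM. At the saline mixture the ratios of Aox1 and G0s2 were 1.08 and 1.28.

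Between alveolar and adventitial cells the esterase Ces1d was higher in alveolar cells by 16.6-fold in saline and 14.5-fold in bleomycin, though it also served as an alveolar marker. Cyp1b1, a cytochrome P450 that can oxidise retinoids, was lower, with ratios of 0.0610 [0.0420–0.0867] and 0.0486 [0.0178–0.106]. G0s2 was higher in alveolar cells, by 3.57-fold and 9.11-fold. Of the retinoic acid response genes 4 of 17 were higher and 1 lower in saline, against 4.29% and 6.33% of all genes, and 4 of 16 and 1 in bleomycin, against 7.13% and 7.55%. The genes, named after their values were seen, were Hoxa2, Hoxa5 and Tbx5 (higher in each), Hoxa4 (higher in saline), Tnfrsf19 (higher in bleomycin) and Hic1 (lower in each). Receptors and coregulators again gave 0 of 13 and 0 of 14.

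Within adventitial cells Cyp1b1 was higher in bleomycin, at 61.7 CPM against 15.5 CPM in saline (3.99-fold [3.36–4.77]), and G0s2 was lower (0.444 [0.416–0.475]). Of the 14 receptors and coregulators and 15 response genes measured there, 0 met the rule, against 3.26% of all genes higher and 3.62% lower. Within alveolar cells Lpl was higher (2.27-fold [2.02–2.54]) and Lipe lower (0.467 [0.247–0.806], from 13 bleomycin UMIs). There, 0 of 13 receptors and 0 of 17 response genes met the rule, against 1.83% and 0.885% of all genes.

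The genes with profiles most like each member were sought over 18 profiles, each 1 cluster of 1 library with at least 50 cells, as Pearson's r of log2(CPM + 1) among 5215 genes. The profiles share libraries, depth and cells, so r is only a description. Lrat was most like Dpep1 (r = 0.977), Tcf21 (0.970) and C7 (0.959). Adh1 was most like Sult5a1 (0.974), Smim41 and St8sia2, Adh7 most like Entpd2 (0.907), Bmp7 and Pi16, and Aldh1a1 most like Sh3bp5 (0.913), Arhgap21 and Slc25a25. Rbp4 had no close match, with Tspan11 first at 0.785. Among the members themselves Lrat and Adh1 had an r of 0.909, Aldh1a1 and Adh1 of 0.774 and Lrat and Aldh1a1 of 0.763, whereas Aldh1a1 and Rbp4 had 0.0667 and Aldh1a1 and Adh7 -0.11.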

How the data were processed

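Mesenchymal cells from 1 saline and 1 bleomycin library were analysed from the authors' deposited matrices of raw UMI counts per gene and cell barcode, which the submitters' processing notes credit to Cell Ranger 6.1.2 and mm10. All values were checked to be whole, and groups came from the labels' treatment entry. The members and gene lists were chosen with earlier results of these data known. All 9 members are named. Of the other lists, the text names up to 3 genes in each direction meeting the size rule over all mesenchymal cells, and genes of the retinoid lists other than response and lipid genes meeting it the same way between alveolar and adventitial cells of both libraries, which gave Aox1, Ces1d, Cyp1b1, G0s2, Lipe and Lpl. For likeness, the 3 genes of highest r outside these lists were taken among genes at 50 CPM or more in a profile. Other names were chosen after their values were seen.

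Cells with at least 500 genes and at most 10% mitochondrial UMIs were kept. Scrublet (scanpy 1.11.5, expected rate 7%) marked 66 saline and 0 bleomycin cells as doublets, so it did not work on the bleomycin library, where doublets remain. Cell types were rebuilt here. Both libraries were clustered together without integration (2000 variable genes without any retinoid list gene, 30 principal components, 15 neighbours, Leiden resolution 0.5, igraph 0.11.9). A cluster took the name of 1 of 19 marker lists where at least 3 markers were raised 1.5-fold, the list's median log2 fold and the share of its markers at 10 CPM reached 0.5, and no other list had more markers among its top 10 genes. A cluster led by Igkc and Jchain stayed unnamed. The mesothelial and epithelial (led by Scgb1a1, Sftpc and Ager) clusters were left out of the mesenchymal sums, which held 8123 saline and 9671 bleomycin cells. The unnamed cluster, with 10 saline and 177 bleomycin cells, stayed in these sums. Differences from other accounts of these cells may come from rebuilt names.

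UMIs were summed per class and library and scaled to CPM. Intervals at 95% are exact Poisson (CPM), conditional binomial (ratios) and Clopper-Pearson (shares), computed with scipy 1.17.1. The size rule was run on all genes. On simulated saline counts of the alveolar and adventitial classes it recovered all 50 genes at 3-fold, all 50 at 4-fold and all 50 at 8-fold, 0 of 50 at 1.5-fold and 0 of 7268 unaltered genes, and in bleomycin 12 of 7445 unaltered genes. These simulations held counting error alone. Alternatives covered the cell filter, doublets, resolution, genes and libraries clustered, scaling, cell weights, size rule, cell mixture and thinning depth.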

Additional observations from a re-analysis of the deposited data

How the results depend on the processing

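Of the members' ratios under all alternatives 410 kept their call by the size rule, 24 were no longer past it and 9 were newly past it. A further 5 had been past it and changed direction. Ratios short of the rule in both settings counted as kept even where their direction changed. With separate clustering Cyp26b1 went from 0.517 to 3.15 in alveolar cells and Aldh1a1 from 0.711 to 1.39 in adventitial cells. Rbp4 in alveolar cells, newly past the rule, went from 0.842 to 3.14. Over all mesenchymal cells the count of higher members was 1 by the mean of each cell's CPM, and at the saline mixture of clusters the count of lower members was 2, with ratios of 1.06 for Aldh1a1, 0.954 for Cyp26b1, 1.08 for Aox1 and 1.28 for G0s2. That mixture left out the fibrotic, proliferating and unnamed clusters, and its calls used no interval. With each library clustered on its own, 2 members were higher in alveolar than adventitial cells of saline. Within alveolar cells the count of higher members was 0 without the 5% highest doublet scores, at resolution 1, with retinoid genes kept for clustering, by the mean of each cell's CPM, and without the 1 cell with the most Aldh1a3 UMIs, and the count of lower members was 1 at resolution 1 and with separate clustering. Within adventitial cells 0 members were higher and 1 lower with separate clustering, where Lrat was at 1.34 and Adh7 at 1.53, and 0 higher and 1 lower in adventitial cluster 0, where Aldh1a2 was at 0.223, and 0 higher and 2 lower in cluster 14. In the separate saline clustering 770 Adh7-rich cells lay outside the adventitial class, and the cause of the other changes was not tested. The adventitial cluster and single-cell alternatives were chosen after seeing the data. Shares rose and dropped with the thinning depth, and 25 of 37 moved at 1000 UMIs. Stra6 and Cyp26b1 were too sparse in alveolar cells to compare, and Stra6 gave no ratio under 2 alternatives, where saline held 0 UMIs. No paired analysis was possible because each treatment has 1 library and the labels give no replicate numbers, and no library could be left out.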
